A study of Danio rerio with 12 samples.

Results

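The chemosensory and other G-protein-coupled receptor genes described here are the 30 genes whose symbol in the array's annotation marks them as an odorant, ora, taste, numbered GPR or adhesion receptor. They were taken by a naming rule from 2614 genes with a symbol in that annotation, among 37144 measured units (a unit is a gene with a symbol or a target without one). The group was chosen with earlier results of these data known. The chemosensory class held 22 genes, with 14 odorant receptors, 1 ora receptor and 7 taste receptors, and the other class held 7 GPR genes and 1 adhesion receptor. No gene with a trace amine receptor (taar) or v2r symbol was found. "Orphan" describes the other class only in part, because ligands have been proposed for several of its members.

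Expression was measured in whole wild-type zebrafish larvae of the AB strain at 72 hours after fertilization. From about 1 hour until then the larvae had been kept in atrazine, a triazine herbicide, at 0.3 ppb, 3 ppb or 30 ppb, or in control water without it (0 ppb). Each dose had 3 pools of 50 animals, and each had a single-colour array of its own, so a value averages all tissues of 50 larvae. Fewer cells of a type and less RNA per cell therefore cannot be told apart. The labels call the pools biological replicates without naming their clutches, and each p-value is therefore measured against pool-to-pool spread alone, which may be partly technical.

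Odorant receptors are the receptors of olfactory sensory neurons in the nose, and each such neuron usually uses a single receptor gene out of a large family. Binding of an odorant activates an olfactory G protein and adenylate cyclase, and cyclic AMP then opens a cyclic-nucleotide-gated channel. Ora receptors are the fish relatives of the mammalian V1R vomeronasal receptors. Taste receptors sit on taste bud cells: T1R proteins pair with each other and respond to amino acids in fish, whereas T2R proteins respond to bitter compounds.

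All values are log2 fluorescence intensities, averaged over the 12 features (oligonucleotide spots) that each receptor gene had on the array. Changes are differences between group means with the standard error (SE) of a limma fit over all 12 arrays, and adjusted p-values were corrected over all 37144 units. Features differ in how brightly they report the same transcript, so levels are compared between pools and not between genes. Array medians were 529 to 530. The largest axis of variation held 41.4% of the variance of all units, and the doses accounted for 4.4% of it. At one end of this axis lay pool 1 of 3 ppb and pool 1 of 0.3 ppb, which carried the highest values of many receptor genes below.

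The chemosensory genes gave dim array signals, which describe the features and not the amount of transcript. By mean intensity, 21 of the 22 lay in the dimmest 25% of all units and 17 in the dimmest 10%, and only ora2 lay above the dimmest 25% (30.7% of units were dimmer). The files hold no background measurement, so whether a given receptor was above background was not tested. Of the other class, 2 of 8 genes (gpr183a and gpr34l) lay in the dimmest 25%.

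No receptor gene passed the threshold of an adjusted limma p under 0.05 at any dose, over the dose trend, or between doses. The share of all units past it was 0.0% at 0.3, 3 and 30 ppb. Without adjustment, 1 of the 30 receptor genes had a p under 0.05 at 0.3 ppb, 4 at 3 ppb and 1 at 30 ppb, where the shares of all units were 1.48%, 3.02% and 2.5%. All of these were chemosensory genes with higher values in treated larvae. The smallest adjusted p of any receptor gene against 0 ppb was 1.

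The chemosensory class nevertheless lay mostly to 1 side of the control. At 0.3 ppb the mean of 18 of the 22 genes was above that at 0 ppb, against 50.7% of all units, and the median change of the class was 0.09 against 0.00 for all units. At 3 ppb all 22 genes were above control, against 47.2% of all units, with changes from 0.03 to 0.55 and a median of 0.22 (all units: -0.01). At 30 ppb all 22 were above control again, against 44.7% of units, some of them barely. The changes ran from 0.00 to 0.66, with a median of 0.11 (all units: -0.02). The 3 comparisons share the control pools and the genes share arrays, so these counts describe the class and are not a test of it.

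Dim units as a whole leaned the same way, by about as much as the chemosensory class at 0.3 ppb and by less at 3 and 30 ppb. In the dimmest 25% of all units, which was chosen for comparison after the data were seen, 68.8%, 61.0% and 61.8% were above control at 0.3, 3 and 30 ppb, with medians of 0.08, 0.05 and 0.05. In the dimmest 10% the shares were 80.5%, 60.9% and 60.9%, and the medians 0.13, 0.04 and 0.04. The part of low intensity in the shift of the receptor genes was not tested.

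The size of the shift depended on single pools, most of all at 3 ppb. Relative to the mean of the 0 ppb pools, the median of the chemosensory class at 3 ppb was 0.48 in pool 1, -0.03 in pool 2 and 0.16 in pool 3. At 30 ppb it was 0.27, 0.21 and -0.04 in pools 1 to 3, at 0.3 ppb 0.20, -0.01 and 0.06, and in the control pools themselves 0.05, -0.11 and 0.09. Every dose thus had at least 1 pool inside the range of the controls. The wider group of dim units described above was also highest in pool 1 at each treated dose. Its medians in pools 1 to 3 were 0.22, -0.07 and 0.08 at 0.3 ppb, and 0.23, -0.05 and -0.01 at 3 ppb. They were 0.19, 0.04 and -0.07 at 30 ppb, and -0.02, -0.10 and 0.11 in the control pools. High values in pool 1 were therefore not particular to the chemosensory class, although its median in pool 1 of 3 ppb was larger (0.48 against 0.23). Of the 22 genes, 12 had their highest value of all 12 arrays in pool 1 of 3 ppb and 5 in pool 1 of 0.3 ppb, while 9 had their lowest in pool 2 of 0 ppb. Without pool 1 of 3 ppb, 15 of the 22 genes were above control at 3 ppb and the class median was 0.04. Without pool 2 of 0 ppb, 14, 18 and 16 genes were above control at 0.3, 3 and 30 ppb, and the medians were 0.03, 0.18 and 0.06. Leaving out each pool in turn gave medians of 0.04 to 0.33 at 3 ppb. At 30 ppb it gave 0.06 to 0.22, with 16 to 22 genes above control. Each array's probe-position gradient is the slope of its log2 difference from the mean of all arrays along the closing number of each feature ID. That number was taken here as a position along the target. With the gradient as a covariate the class median at 3 ppb was -0.02, and 10 of the 22 genes were above control. The gradient was 0.0196, 0.0241 and -0.0035 in the control pools and -0.0334, 0.0033 and -0.0098 at 3 ppb. Dose and gradient therefore could not be fully told apart in this fit. After cyclic loess normalization the median at 0.3 ppb was -0.01, with 10 genes above control. At 30 ppb the alternatives that kept all pools gave class medians of 0.05 to 0.18, with 15 to 22 genes above control.

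**Figure D1:**
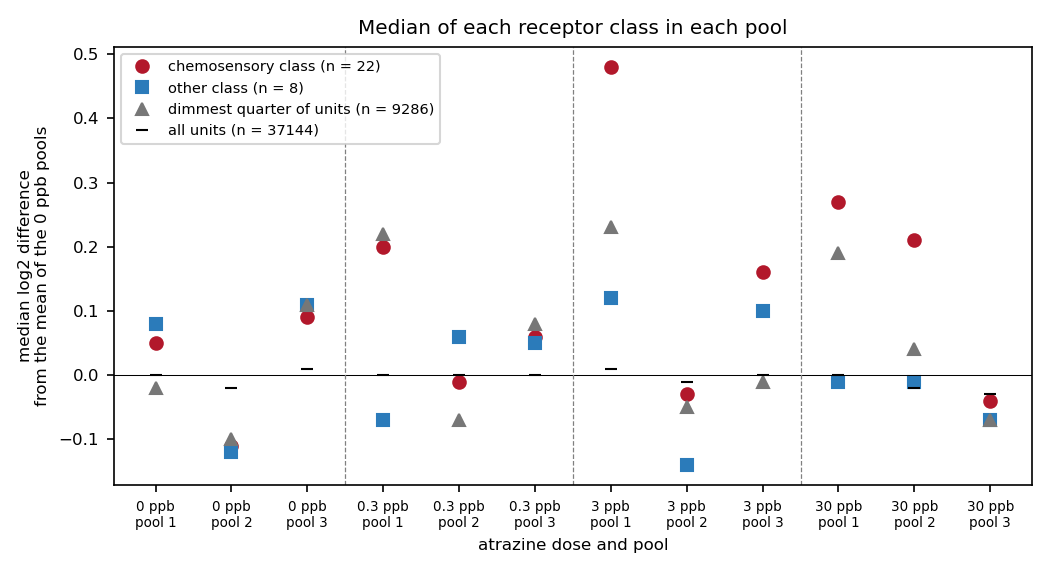
Median log2 difference from the mean of the 0 ppb pools (vertical axis) in each of the 12 pools (horizontal axis), for the chemosensory class, the other class, the dimmest 25% of all units and all units. The chemosensory class stood highest in pool 1 of 3 ppb, at 0.48, and in each dose at least 1 pool lay within the range of the control pools.

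**Figure D2:**
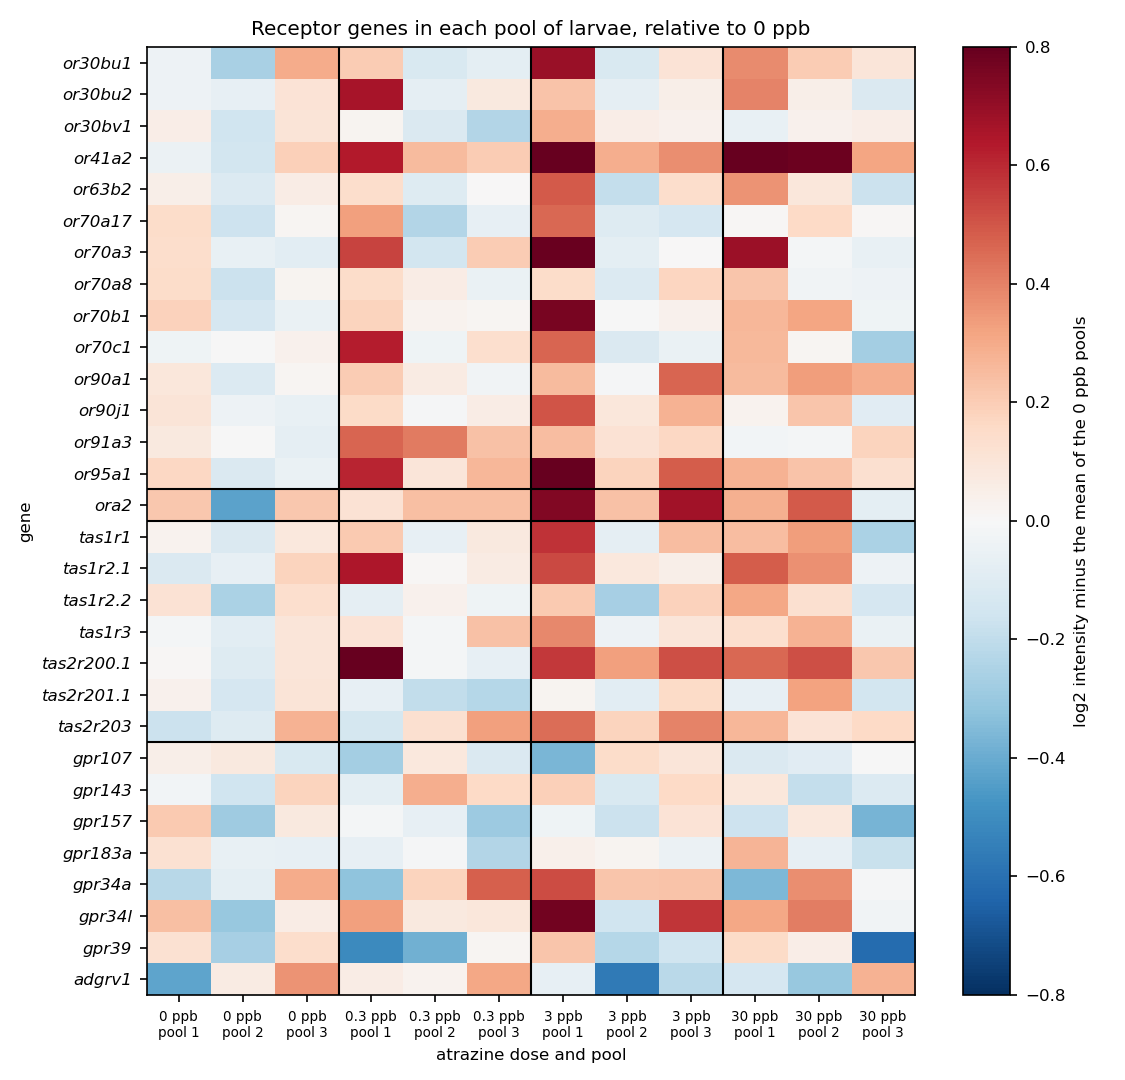
Log2 intensity of each receptor gene (rows, odorant, ora, taste and other receptors from top to bottom) in each pool (columns), minus the mean of the 3 pools at 0 ppb; colours are capped at 0.8 in either direction. Red cells are concentrated in pool 1 of 3 ppb for the chemosensory genes, whereas the other class is mixed in every pool.

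Among the odorant receptors, or41a2 had the largest difference. Its level was 5.44, 5.34 and 5.68 in the control pools, 6.12, 5.74 and 5.69 at 0.3 ppb, 6.31, 5.78 and 5.86 at 3 ppb, and 6.37, 6.27 and 5.80 at 30 ppb. Every treated pool lay above every control pool, although at 0.3 ppb the nearest pools stood at 5.69 and 5.68. The change at 30 ppb was 0.66 (SE 0.20, 1.58-fold, limma unadjusted p = 0.00505, adjusted p = 1), with a 95% interval of 0.24 to 1.09. At 3 ppb it was 0.50 (SE 0.20, limma unadjusted p = 0.0247, adjusted p = 1), and at 0.3 ppb 0.36 (SE 0.20, limma unadjusted p = 0.0867, adjusted p = 1). Over the ordered doses its slope was 0.21 per dose step (SE 0.06, limma unadjusted p = 0.00253), which also missed the threshold (adjusted p = 0.406), where 0.0969% of all units passed. Without adjustment, 3 receptor genes (or41a2, or90a1 and tas2r200.1) had a trend p under 0.05, against 4.3% of all units. With array quality weights, in a fit that raised a convergence warning and called 354 units, or41a2 passed at 30 ppb (change 0.78, limma adjusted p = 0.0105).

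The 12 features of or41a2 were unequal. At 30 ppb 10 of the 12 were above control, with changes from -0.35 to 2.92. The most changed feature stood at 4.81, 5.37 and 4.68 in the control pools and at 7.48, 8.23 and 7.91 at 30 ppb, a gap between the groups. This feature alone made up 36.7% of the summed change of the gene. At 3 ppb the same feature read 9.74, 6.19 and 6.67 and made up 43.1% of the summed change. Without it the change of the gene was 0.46 at 30 ppb (SE 0.18, limma unadjusted p = 0.0282, adjusted p = 1), and the pools then overlapped those of the control. At 3 ppb the change without it was 0.31 (SE 0.18, limma unadjusted p = 0.118), again with overlap. In RefSeq's zebrafish gene order (GRCz12tu, used for names and neighbours only) or41a2 lies next to or41a1. Probe sequences were not used here, so whether this feature also reads another gene was not tested.

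The odorant receptor gene or91a3 was the single member with a limma unadjusted p under 0.05 at 0.3 ppb. Its control pools read 5.52, 5.44 and 5.37, and the pools at 0.3 ppb 5.91, 5.86 and 5.68, so the groups did not overlap. The values at 3 ppb were 5.69, 5.56 and 5.61, just clear of the controls, and those at 30 ppb were 5.42, 5.43 and 5.62, which overlapped them. The change was thus 0.37 at 0.3 ppb (SE 0.12, limma unadjusted p = 0.00937, adjusted p = 1), 0.18 at 3 ppb and 0.05 at 30 ppb. The level at 30 ppb was lower than at 0.3 ppb by a change of -0.32 (SE 0.12, limma unadjusted p = 0.0199, adjusted p = 0.995), again without overlap of the pools but not past the threshold. At 0.3 ppb 9 of the 12 features were above control. The closing numbers of most of their IDs lie close together (184 to 207 and 526 to 540), so they may not be independent readings. The most changed feature read 5.41, 7.87 and 5.53 in pools 1 to 3 of 0.3 ppb and made up 29.3% of the summed change. Without it the change was 0.29 (SE 0.13, limma unadjusted p = 0.0493), and the groups still did not overlap.

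For or95a1 the highest values came at 3 ppb. The pools read 6.47, 6.19 and 6.25 at 0 ppb, 6.91, 6.40 and 6.57 at 0.3 ppb, 7.28, 6.48 and 6.79 at 3 ppb, and 6.58, 6.53 and 6.43 at 30 ppb. The lowest 3 ppb pool (6.48) barely cleared the highest control (6.47), and those at 0.3 and 30 ppb overlapped them. The change at 3 ppb was 0.55 (SE 0.20, 1.46-fold, limma unadjusted p = 0.0158, adjusted p = 1), and 10 of the 12 features were above control. Leaving out 1 pool at a time moved it between 0.33 and 0.73, with the lowest value without pool 1 of 3 ppb. Without the most changed feature of or95a1 it was 0.41 (SE 0.15, limma unadjusted p = 0.0189), and the groups still did not overlap.

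The remaining 11 odorant receptor genes had limma unadjusted p-values above 0.05 at every dose. They are or30bu1, or30bu2 and or30bv1, or63b2, the or70 genes or70a17, or70a3, or70a8, or70b1 and or70c1, and or90a1 and or90j1. Of these or90a1 came closest, with control pools at 5.57, 5.37 and 5.49 and 30 ppb pools at 5.73, 5.81 and 5.77. Those groups did not overlap, and its change of 0.29 at 30 ppb (SE 0.14) had a limma unadjusted p of 0.0592 (adjusted p = 1). Its change per dose step was 0.10 (SE 0.04, limma unadjusted p = 0.0234, adjusted p = 0.994). At 30 ppb the most raised feature of or90a1 changed by 1.42, against a median feature change of 0.24. Single features also rose far more than the rest in other genes of this group. At 3 ppb the highest feature change was 2.67 for or90j1 and 2.61 for or70b1, against median feature changes of 0.05 and 0.09. Fits of these genes without such features were not run. The gene or70a8 varied least of all chemosensory genes, between 5.29 and 5.68 over the 12 arrays, and its changes were 0.06, 0.07 and 0.05 at 0.3, 3 and 30 ppb (SE 0.14 each).

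Odorant receptor genes that lie side by side in the genome had unlike readings in some pools and moved together in others. In RefSeq's order or70a17 and or70a3 are direct neighbours, as are or30bu1 and or30bu2. In pool 1 of 30 ppb, or70a3 read 6.63 while or70a17 read 5.95, and their control means were 5.95 and 5.94. Both had their highest value in pool 1 of 3 ppb, at 6.74 and 6.40. Both had their lowest in pool 2 of 0.3 ppb, at 5.80 and 5.71. The pair or30bu1 and or30bu2 had changes of 0.22 and 0.07 at 3 ppb and 0.22 and 0.11 at 30 ppb, and at 0.3 ppb of 0.00 and 0.22. The SE of these changes was 0.21 for or30bu1 and 0.19 for or30bu2, and whether neighbours differed was not tested. No change of these genes was past the threshold.

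The ora receptor gene ora2 had the widest range of the chemosensory genes over the 12 arrays, from 6.95 to 8.12. It lies next to ora1 in RefSeq's order. Its pools read 7.59, 6.95 and 7.59 at 0 ppb, 7.49, 7.62 and 7.62 at 0.3 ppb, 8.12, 7.61 and 8.05 at 3 ppb, and 7.66, 7.87 and 7.30 at 30 ppb. Pool 2 of 0 ppb was the low value, and the 3 ppb pools cleared the controls by a narrow margin (7.61 against 7.59). The change at 3 ppb was 0.55 (SE 0.21, 1.47-fold, limma unadjusted p = 0.0198, adjusted p = 1), against 0.20 at 0.3 ppb and 0.23 at 30 ppb. Without pool 2 of 0 ppb the change at 3 ppb was 0.34, and leaving out each pool in turn gave 0.34 to 0.71. It was lower at 30 than at 3 ppb by a change of -0.32 (SE 0.21, limma unadjusted p = 0.146, adjusted p = 1). At 3 ppb 8 of the 12 features were above control, and the most changed one, at 6.94, 5.97 and 5.94 in the controls and 10.14, 6.89 and 9.13 at 3 ppb, made up 36.6% of the summed change. Without that feature the pools overlapped and the change was 0.38 (SE 0.21, limma unadjusted p = 0.0903, adjusted p = 1).

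**Figure D3:**
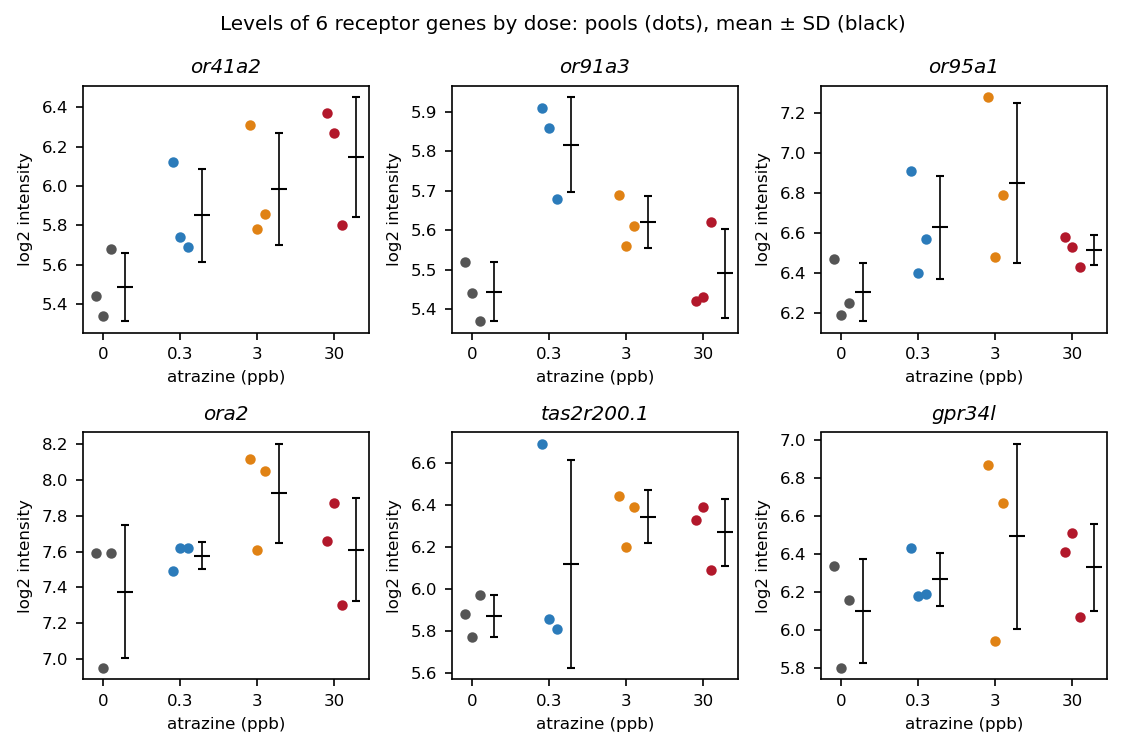
Log2 intensity (vertical axis) of 6 receptor genes in each pool (dots), with the mean and SD of the 3 pools beside them (black), by atrazine dose (horizontal axis; each panel has its own vertical scale, which does not start at 0). The lowest treated pools of or41a2 lie just above the highest control pool, and the or91a3 pools at 30 ppb overlap the controls while those at 0.3 ppb do not.

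Of the taste receptor genes, the T2R gene tas2r200.1 had the largest changes. The control pools read 5.88, 5.77 and 5.97. At 0.3 ppb pool 1 stood at 6.69 while pools 2 and 3, at 5.86 and 5.81, were within the controls. A single feature read 12.47 in that pool 1 and between 4.99 and 6.41 in all other pools. The 3 ppb pools read 6.44, 6.20 and 6.39 and the 30 ppb pools 6.33, 6.39 and 6.09, and neither group overlapped the controls. The change was 0.47 at 3 ppb (SE 0.21, 1.39-fold, limma unadjusted p = 0.0392, adjusted p = 1) and 0.40 at 30 ppb (SE 0.21, limma unadjusted p = 0.0757, adjusted p = 1). Its slope of 0.14 per dose step (SE 0.06) had a limma unadjusted p of 0.0406 and an adjusted p of 1. At 3 ppb 10 of the 12 features were above control. Without the most changed feature the groups still did not overlap, and the change was 0.37 (SE 0.23, limma unadjusted p = 0.131, adjusted p = 1). The feature with the 12.47 reading stayed in that fit, and the fit shares a single estimate of spread over all doses. The SD of the pools was 0.50 at 0.3 ppb, against 0.10, 0.13 and 0.16 at 0, 3 and 30 ppb. That reading therefore widens the SE at every dose, and a fit without its feature was not run.

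The other T2R genes were tas2r203 and tas2r201.1. For tas2r203 the control pools read 5.33, 5.40 and 5.78 and the 3 ppb pools 5.95, 5.68 and 5.90, which overlapped. Its change at 3 ppb was 0.34 (SE 0.16, limma unadjusted p = 0.0512, adjusted p = 1), and 11 of its 12 features were above control. For tas2r201.1 the changes were -0.16, 0.03 and 0.04 at 0.3, 3 and 30 ppb (SE 0.15 each), with 4 of 12 features above control at 3 ppb. The closing numbers of most of its feature IDs lie close together (239 to 249 and 790 to 805), so its features may not be independent readings. With array quality weights, in a fit that called 1193 units, tas2r203, tas2r200.1 and ora2 passed at 3 ppb.

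The T1R genes tas1r1, tas1r2.1, tas1r2.2 and tas1r3 showed no difference past the threshold. At 3 ppb their changes were 0.25, 0.22, 0.04 and 0.15, and at 30 ppb 0.11, 0.27, 0.10 and 0.12. T1R3 is the shared partner in T1R pairs, and its gene tas1r3 had one of the narrowest ranges of the class, from 5.89 to 6.36. The neighbouring genes tas1r2.1 and tas1r2.2 encode T1R2 proteins. In pool 1 of 0.3 ppb the former read 6.05, above its controls at 5.29, 5.34 and 5.58, while the latter read 5.47, within its own controls at 5.66, 5.29 and 5.68.

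**Figure D4:**
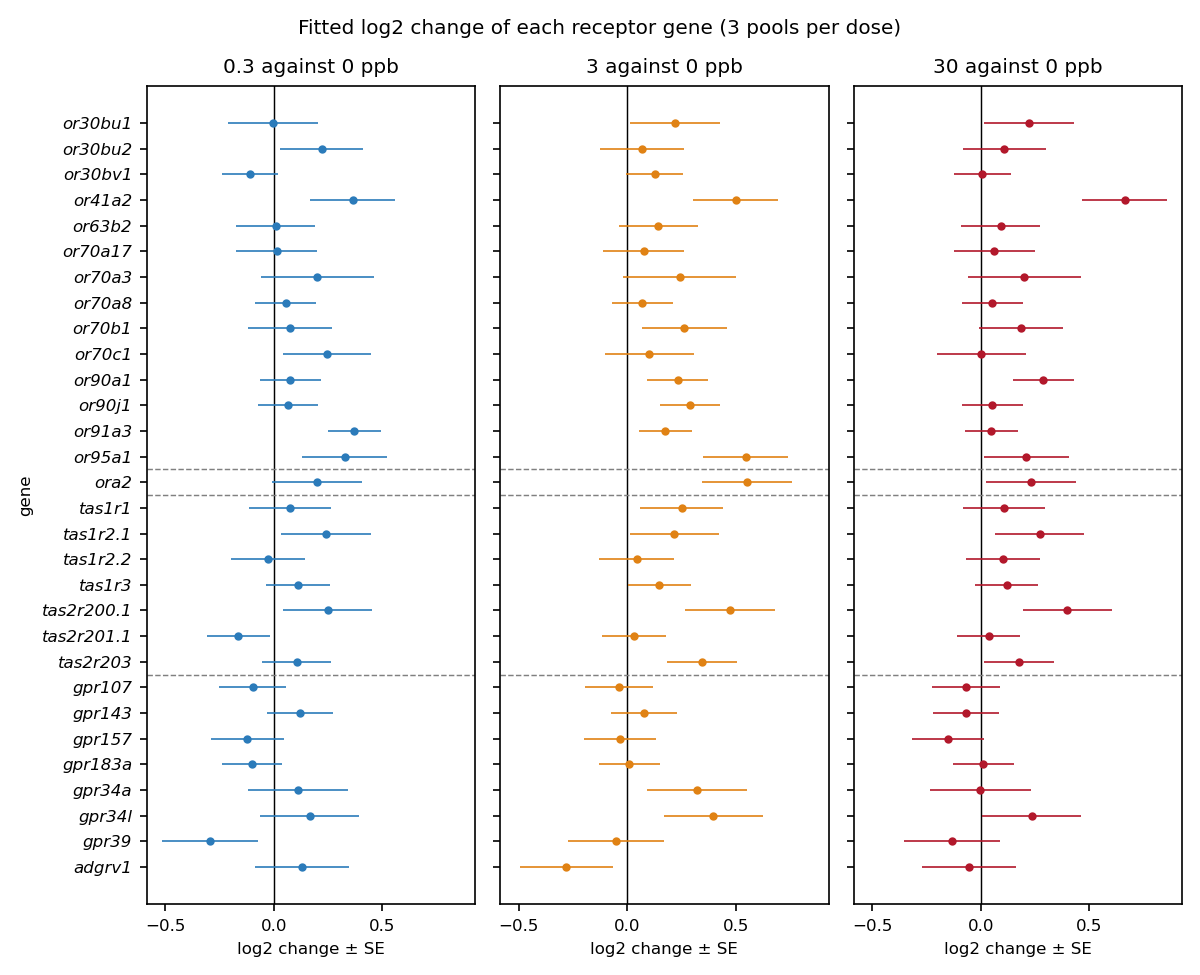
Fitted log2 change of each of the 30 receptor genes (rows) against 0 ppb at 0.3, 3 and 30 ppb (panels); points are estimates, bars are 1 SE in each direction, and dashed lines part odorant, ora, taste and other receptors. All 22 chemosensory estimates lie at or above 0 at 3 and 30 ppb, and none of the 30 genes passed the threshold.

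At the level of single features the chemosensory class was less one-sided than at the level of genes. Of its 264 features, 63.3% were above control at 0.3 ppb, 63.3% at 3 ppb and 61.0% at 30 ppb, against 51.3%, 48.3% and 46.2% of all 385000 features. For the 96 features of the other class the shares were 53.1%, 51.0% and 49.0%. The same shares over dim features alone were not computed. Features of a gene share its transcript and the arrays, so these shares are not a test. Summarising each gene by its median feature, not the mean, left 15 of the 22 chemosensory genes above control at 3 ppb and 15 at 30 ppb, with medians of 0.13 and 0.09. Tested 1 by 1 over all features, no feature of a receptor gene passed (smallest limma adjusted p 0.45 at 3 ppb, 0.301 at 30 ppb and 0.13 for the trend).

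**Figure D5:**
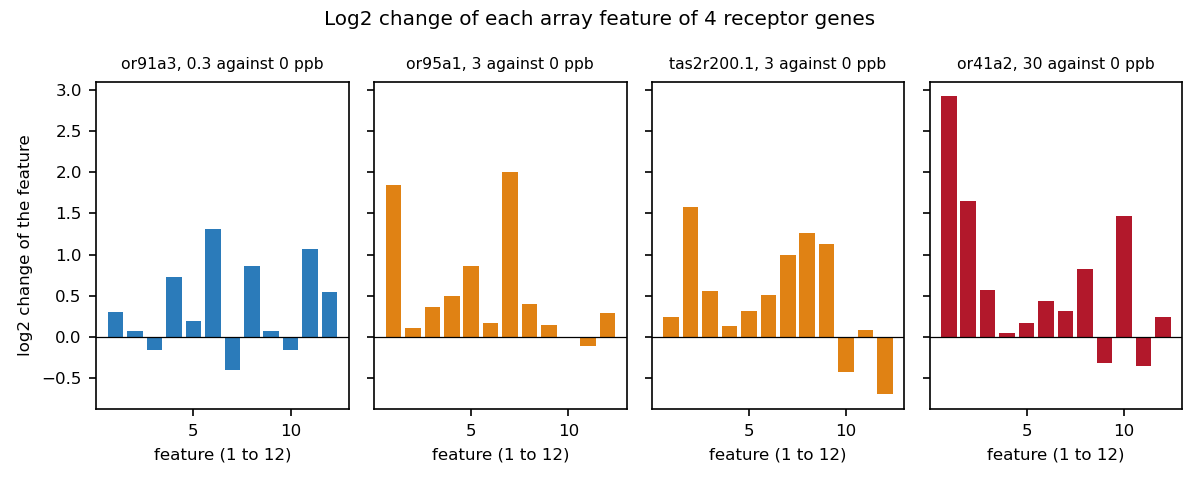
Log2 change against 0 ppb (bars, from 0) of each of the 12 features of or91a3, or95a1, tas2r200.1 and or41a2, ordered by the closing number of the feature ID. Most bars are above 0 in each panel, and 1 feature of or41a2 reaches 2.92.

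The other class showed no common direction. At 0.3 ppb and at 3 ppb 4 of its 8 genes were above control, and at 30 ppb 2 were, with medians of 0.01, -0.01 and -0.06. No gene of this class had pools at any dose that stood clear of the control pools, where 2.09%, 3.52% and 3.4% of all units did so on the higher side. The chemosensory genes that stood clear on the higher side numbered 2, 5 and 3 of 22, and none of either class did on the lower side (all units: 2.99%, 3.88% and 3.13%). In the dimmest 25% of all units, which held most chemosensory genes, 3.05%, 6.69% and 8.11% stood clear on the higher side. On the lower side 146, 264 and 145 of these 9286 dim units did.

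Among the GPR genes the largest difference was in gpr34l, a relative of the mammalian lysophosphatidylserine receptor gene of microglia and other macrophages. The control pools read 6.34, 5.80 and 6.16 and the 3 ppb pools 6.87, 5.94 and 6.67, with overlap through pool 2. Its change at 3 ppb was 0.40 (SE 0.23, limma unadjusted p = 0.106, adjusted p = 1), and 11 of 12 features were above control. For its paralog gpr34a the control pools read 7.07, 7.21 and 7.59 and the 3 ppb pools 7.81, 7.51 and 7.52, with a change of 0.32 (SE 0.23, limma unadjusted p = 0.189, adjusted p = 1). At 30 ppb the change of gpr34a was 0.00 (95% interval -0.50 to 0.50).

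The gene gpr183a, whose mammalian counterpart encodes an oxysterol receptor that guides immune cells, had changes of -0.10, 0.01 and 0.01 (SE 0.14 each). The zinc-sensing receptor gene gpr39 read 8.48, 8.09 and 8.50 in the controls and 7.85, 7.97 and 8.37 at 0.3 ppb, which overlapped. Its change there was -0.29 (SE 0.22, limma unadjusted p = 0.21, adjusted p = 1), with 3 of 12 features above control. The changes of gpr157 were -0.12, -0.03 and -0.15 (SE 0.17 each).

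The pigment cell gene gpr143, known in humans for ocular albinism, had the narrowest range of the class, from 9.22 to 9.70, and changes of 0.12, 0.08 and -0.07 (SE 0.15 each). The gene gpr107, whose product resides in the Golgi and endosomal membranes, ranged from 10.86 to 11.37, and both of these extremes fell at 3 ppb, in pools 1 and 2. Its changes were -0.10, -0.04 and -0.07 (SE 0.16 each).

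The adhesion receptor gene adgrv1 encodes a very large protein of the links between hair-cell stereocilia and of photoreceptors. Its pools read 8.45, 8.94 and 9.23 at 0 ppb, 8.93, 8.90 and 9.18 at 0.3 ppb, 8.81, 8.31 and 8.66 at 3 ppb, and 8.74, 8.57 and 9.15 at 30 ppb. The 3 ppb pools lay below the 0.3 ppb pools without overlap, a change of -0.41 (SE 0.22, limma unadjusted p = 0.0803, adjusted p = 1), and overlapped the controls, which spanned the widest range of any dose. In this comparison 3.87% of all units were lower without overlap. Only 2 of 12 features were above control at 3 ppb.

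Between doses no receptor gene passed either. From 0.3 to 3 ppb 18 of the 22 chemosensory genes were higher (49.9% of all units), and from 3 to 30 ppb 7 were (48.6% of all units), with class medians of 0.15 and -0.05. The 7 taste receptor genes were all higher at 30 than at 0.3 ppb (47.1% of all units), by 0.01 to 0.20, whereas 7 of the 14 odorant receptor genes were. Of the 30 genes, 0 had a limma unadjusted p under 0.05 between 3 and 0.3 ppb, 0 between 30 and 3 ppb, and 1, or91a3, between 30 and 0.3 ppb, where the shares of all units were 4.16%, 0.762% and 4.08%. Between 0.3 and 3 ppb, or30bv1 was the 1 receptor gene that was higher without overlap (all units: 3.59%), at 5.87, 5.73 and 5.61 against 6.14, 5.90 and 5.88 (change 0.24, SE 0.13, limma unadjusted p = 0.0942, adjusted p = 1). Between 0.3 and 30 ppb, or90a1 was the 1 gene higher without overlap (all units: 3.79%), with a change of 0.21 (SE 0.14), and or91a3 the 1 gene lower (all units: 3.94%). Over the same step or41a2 differed by 0.30 (SE 0.20) with overlap. Between 3 and 30 ppb 0 receptor genes were clear in either direction (all units: 1.46% higher and 2.14% lower), and the smallest p-values were those of or95a1 (change -0.34, SE 0.20) and or90j1 (change -0.24, SE 0.14). In the other class, the slopes with the smallest p-values were 0.09 for gpr34l, -0.06 for adgrv1 and -0.04 for gpr157 per dose step (SE 0.07, 0.07 and 0.05). Leaving out each pool in turn moved these slopes over 0.05 to 0.14, -0.12 to -0.01 and -0.07 to 0.00. The gpr34l slope was lowest without pool 2 of 0 ppb and highest without pool 3 of 30 ppb. That of adgrv1 was -0.12 without pool 1 of 0 ppb, -0.01 without pool 3 of 0 ppb and -0.11 without pool 3 of 30 ppb. That of gpr157 was -0.07 without pool 2 of 0 ppb or pool 2 of 30 ppb, and between -0.02 and 0.00 without pool 1 or 3 of 0 ppb or pool 3 of 30 ppb. A limma F test over the 4 doses gave an unadjusted p of 0.0295 for or41a2 and 0.0399 for or91a3 (adjusted p of 1 for each), with 2.44% of all units under 0.05.

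The genes measured for olfactory signalling and olfactory neurons gave 0 calls at every dose. Of 26 genes written down for olfactory transduction and olfactory neurons, 2 were measured under a symbol. The olfactory channel subunit gene cnga2a read 5.78 ± 0.24 (SD, n = 3) at 0 ppb, 6.12 ± 0.37 at 0.3 ppb, 5.81 ± 0.32 at 3 ppb and 5.89 ± 0.37 at 30 ppb. Its changes of 0.34, 0.03 and 0.11 (SE 0.24 each) lay within the spread between pools, and its signal was dim (6.8% of units were dimmer). The transcription factor gene ebf3a, which is active in many neurons, read 13.51 ± 0.06 at 0 ppb and had changes of 0.06, -0.05 and -0.04. The defining olfactory neuron genes ompa and ompb were not among the genes with a symbol and were not analysed here, so the share of olfactory neurons was not tested.

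For taste and solitary chemosensory cells, 2 of 11 genes were measured. The actin-binding villin family gene avil had changes of 0.01, 0.23 and 0.00 (SE 0.21 each), and the transcription factor gene pou2f3 of 0.07, -0.05 and 0.04 (SE 0.22 each). The V2R-type olfactory receptor gene olfcd2, which the naming rule did not take in, read 5.66 ± 0.27 at 0 ppb and was higher in the mean at each dose, by 0.42, 0.44 and 0.26 (SE 0.23 each). Its smallest limma unadjusted p was 0.0819, at 3 ppb (adjusted p = 1), and its signal was dim (7.6% of units were dimmer).

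None of 6 G protein subunit genes, 10 genes of receptor and G protein regulators and 7 genes of second messenger enzymes passed the threshold at any dose. At 3 ppb 3 of 6, 7 of 10 and 3 of 7 were above control (all units: 47.2%), with medians of 0.01, 0.08 and -0.02. The largest difference among them was in rgs14a, which encodes a regulator of G protein signalling, at 7.18 ± 0.26 against 6.72 ± 0.20 at 3 ppb (change 0.47, SE 0.18, limma unadjusted p = 0.0233, adjusted p = 1). At 30 ppb the change of rgs14a was 0.46 (limma unadjusted p = 0.0251) and at 0.3 ppb 0.35 (limma unadjusted p = 0.0748), neither past the threshold. The signal of rgs14a was dim (23.3% of units were dimmer). The G protein alpha subunit gene gna14 had a change of -0.30 at 0.3 ppb (SE 0.16), and the protein kinase A catalytic subunit gene prkacaa one of -0.31 at 30 ppb (SE 0.19). For gng2, grk1a and prkacbb the smallest limma unadjusted p at any dose was 0.219, 0.172 and 0.124.

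The receptors most like the other class are mainly those named for their ligand. Of this list 40 were measured, with the frizzled genes fzd3b, fzd6 and fzd10 and the opsin genes opn6a and rrh among them. At 0.3, 3 and 30 ppb 24, 28 and 23 of the 40 were above control (all units: 50.7%, 47.2% and 44.7%). The medians were 0.02, 0.06 and 0.02, and 0 passed. The muscarinic acetylcholine receptor gene chrm5a differed most, at 6.91 ± 0.11 against 6.42 ± 0.11 at 30 ppb (change 0.49, SE 0.15, limma unadjusted p = 0.00593, adjusted p = 1). Its change was also 0.49 at 3 ppb (limma unadjusted p = 0.00603) and 0.38 at 0.3 ppb (limma unadjusted p = 0.0231), neither past the threshold. By p-value the chemokine receptor gene ccr7 followed, with a change of 0.32 at 30 ppb (SE 0.15, limma unadjusted p = 0.049, adjusted p = 1). The signals of chrm5a and ccr7 were dim (19.9% and 10.0% of units were dimmer), and dim units as a whole leaned higher.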

How the data were processed

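The authors deposited 385000 features on 12 single-colour NimbleGen arrays as linear fluorescence intensity values. RMA is named, per the submitters' processing notes; the sources used here give no version, background correction or scan batch. The deposited quantiles were near-identical across arrays, and features were not summarised. Intensities were transformed to log2 and averaged over the features with 1 symbol, or per target ID, giving 37144 units (2650 with a symbol). Of 385000 features, 30725 had 1 symbol, of which 399 were named through RefSeq accessions, and 354275 had none. An annotation listing several symbols was treated as giving none, and such features were not counted apart.

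Group means over all 12 arrays were fitted with limma 3.58.1 (lmFit, contrasts.fit, eBayes) in R 4.3.3, with a separate slope over dose rank and Benjamini-Hochberg adjustment over all units at 0.05. Python 3.11.15 with pandas 2.3.3 read and named the features. The fit was tested on simulated data. The number of arrays limits the precision.

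Members and lists were chosen with earlier results of these data known. The ligand-named receptor list was trimmed of genes for other kinds of protein that its pattern had caught. Genes described in full have, per dose, pools apart from 0 ppb and an unadjusted p under 0.05; added were, per class, the 3 smallest p-values for the trend and between doses and the 2 widest and 2 narrowest ranges, and per related list the 2 genes with the smallest p. Further genes were described after their values were seen. Alternatives covered feature summary, an offset of 50, normalization, dim units, array weights, the prior, replicate number, the probe-position gradient, a threshold of 0.1 and each pool left out. A gene without its most changed feature was added after seeing the data.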

Additional observations from a re-analysis of the deposited data

How the results depend on the processing

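No receptor gene was called in the 12 fits that left out a pool (range 0 to 0 in every comparison) or under any alternative except array quality weights, which called 3 receptor genes at 3 ppb, 1 at 30 ppb, 1 between 30 and 3 ppb, 1 for the trend and 1 over the 4 doses (or41a2 in all but the first). Over all units array weights called 1193 at 3 ppb, 354 at 30 ppb, 17 between 3 and 0.3 ppb, 61 between 30 and 0.3 ppb, 2212 between 30 and 3 ppb, 370 for the trend and 2051 over the 4 doses, with a convergence warning. Under them the changes of ora2 and tas2r200.1 at 3 ppb were 0.60 and 0.51, and the slopes of or41a2 and gpr157 were 0.24 and 0.01, the last of these turned in sign. Other alternatives moved changes by over 1.5 times, mostly downward. With the offset of 50 they were 0.31 at 3 ppb and 0.40 at 30 ppb for or41a2, 0.19 for or91a3 at 0.3 ppb and 0.31 for tas2r200.1 at 3 ppb, with slopes of 0.13 for or41a2, 0.05 for or90a1, 0.09 for tas2r200.1, 0.05 for gpr34l and -0.02 for gpr157. With the probe-position gradient they were, at 3 ppb, 0.19 for or41a2, 0.34 for ora2, 0.33 for or95a1 and 0.27 for tas2r200.1, with a slope of 0.05 for gpr34l. With the median of features they were 0.31 for tas2r200.1 (slope 0.06) but 0.84 for or95a1, with a slope of -0.10 for adgrv1. The other counts over all units that moved were, for the median of features, 3 at 3 ppb, 2 at 30 ppb, 1 between 30 and 0.3 ppb, 14 for the trend (36 in the reported fit) and 4 over the 4 doses. With the probe-position gradient they were 12, 13, 2 and 17 for 3 ppb, 30 ppb, 30 against 0.3 ppb and the 4 doses. At a threshold of 0.1 they were 10 at 30 ppb, 60 for the trend and 12 over the doses. An intensity offset of 50 gave 1 at 30 ppb and 3 over the doses; each feature on its own 1 at 3 ppb, 100 for the trend and 1 over the doses; and dim units left out 11 for the trend and 2 over the doses. Cyclic loess gave 3, median centring 5 and the trend and robust prior 3 over the doses. The causes of these differences were not tested.

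The replicate block called 1 unit at 30 ppb, 3 between 30 and 0.3 ppb and 4 over the 4 doses, and no receptor gene. Replicate numbers were not taken as pairs in the reported fit, and the labels do not say what same-numbered pools share. In deviations from the group means, same-numbered pairs correlated by 0.19 on average and different-numbered pairs by -0.09. Deviations cancel out within a dose, which largely ties the second average to the first. The second average therefore carries little information of its own. Of the 18 same-numbered pairs 9 correlated above 0.1, and 6 of 12 pools correlated best with their own number. Whether the numbers mark a shared batch was not tested. Leaving out a pool gave 0 to 4 units at 30 ppb, 0 to 1 between 30 and 0.3 ppb, 0 to 58 for the trend and 0 to 5 over the doses.

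For the chemosensory class, genes above control moved to 10 at 0.3 ppb with cyclic loess and to 10 at 3 ppb with the gradient; leaving out dim units left 1 gene and so no class value. In the other class the counts were 7 at 0.3 ppb and 4 at 30 ppb (median -0.02) with the median of features, 1 at 30 ppb with cyclic loess, and 2 and 0 of 6 at 3 and 30 ppb without dim units. Leaving out a pool gave 2 to 4, 2 to 6 and 1 to 4 of 8 at 0.3, 3 and 30 ppb, with medians of -0.08 to 0.00 at 30 ppb. Without a background measurement, low signal limits what can be said of the 21 dim chemosensory genes.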

Other observations

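The few general tissue markers with a symbol lay near control. The neuronal genes stmn2b and syn2a differed by -0.03 and -0.04 at 30 ppb (SE 0.12 and 0.13), the radial glia gene fabp7a by 0.09 at 3 ppb (SE 0.18) and the lens fibre channel gene mipa by -0.09 at 0.3 ppb (SE 0.20), each with a limma adjusted p of 1. None of 6 leukocyte genes was measured under a symbol.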
